A study of Mus musculus with 7 samples.

Results

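Hmgcs1, Msmo1, Fdft1 and Sqle encode 4 enzymes of sterol synthesis, and they are followed here across every array of a study of NIH3T3 fibroblasts that overexpressed Acid1. They are 4 of the 9930 genes that the arrays name through a probe with 1 gene symbol, and they are covered by 5 of the 20355 probes. Hmgcs1 has 2 probes (17455 and 19404), and Msmo1 (2130), Fdft1 (8846) and Sqle (17392) have 1 each. The genes were chosen by their measured ratios at 10 h on these same arrays, and Hmgcs1 also by its ratio at 3 h, so those values are given as a description.

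NIH3T3 is an immortalised mouse embryonic fibroblast line. Each of 7 arrays was hybridised with RNA of treated fibroblasts in 1 dye and RNA of non-treated fibroblasts in the other, and each deposited value is a log2 ratio between them, so that a value of 1 is a doubling and no absolute level is known. At 3 h after treatment there were 4 arrays, with the treated sample in Cy5 on replicates 1 and 2 and in Cy3 on replicates 3 and 4. At 10 h there were 3 arrays, with the treated sample in Cy5 on replicates 1 and 2 and in Cy3 on replicate 3. The labels name Acid1 overexpression but not the vector, the clone, what was applied as treatment or whether the non-treated cells carried any construct. The shared protocol text speaks of organs and of a reference from control animals, which goes against the sample names, and the names were followed. Nothing says that replicates were separate cultures, so their spread, and any p-value, may be technical. The control exists only as the other dye of each array, so its own spread enters each ratio and cannot be told apart from that of the treated sample.

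Cholesterol is built from acetyl-CoA in the cytosol and the endoplasmic reticulum. The mevalonate arm yields farnesyl diphosphate, which is joined to squalene, closed to lanosterol and then trimmed to cholesterol. In fibroblasts the genes of the route are known targets of the SREBP transcription factors, which are released to the nucleus when membrane sterol is low. HMG-CoA synthase, Hmgcs1, acts early in the mevalonate arm. Squalene synthase, Fdft1, makes squalene, squalene epoxidase, Sqle, oxidises it, and the methylsterol oxidase Msmo1 takes part in removing the methyl groups at carbon C-4 of the ring.

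In the RefSeq annotation (build GRCm38.p6) Hmgcs1 spans chr13:119690351-119708260, Msmo1 chr8:64718123-64733578, Fdft1 chr14:63145150-63181687 and Sqle chr15:59315092-59331193. RefSeq promoter sequences were at hand for Hmgcs1 and Msmo1. The 250 bases before the start site of each are shown for these 2 genes, for each of which a probe (17455 and 2130) lay above 0 on all 7 arrays. Capitals mark the SREBP site TCACNCCAC and the CCAAT motif, on either strand. The Hmgcs1 window is chr13:119690101-119690350 on the plus strand, and the Msmo1 window is chr8:64733579-64733828 on the minus strand, each written 5′ to 3′ along its gene.

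Hmgcs1: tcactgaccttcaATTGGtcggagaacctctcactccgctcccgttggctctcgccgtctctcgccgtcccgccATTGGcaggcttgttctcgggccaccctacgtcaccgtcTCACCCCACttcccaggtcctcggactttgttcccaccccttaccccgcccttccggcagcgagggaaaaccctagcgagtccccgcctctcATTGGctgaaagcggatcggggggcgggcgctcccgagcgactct
Msmo1: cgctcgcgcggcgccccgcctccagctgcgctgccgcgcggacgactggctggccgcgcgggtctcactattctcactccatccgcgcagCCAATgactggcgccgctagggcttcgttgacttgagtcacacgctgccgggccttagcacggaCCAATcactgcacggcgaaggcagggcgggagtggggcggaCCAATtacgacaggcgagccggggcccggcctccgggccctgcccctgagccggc

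The Hmgcs1 window held 1 match to TCACNCCAC, 137 to 129 bases before the start, and 3 to CCAAT, read as ATTGG on the printed strand. The Msmo1 window held no match to TCACNCCAC and 3 to CCAAT. Each window also held 2 matches to the GC box GGGCGG on either strand, which are not in capitals and overlap none of the others. Of all 32851 promoter windows of that length, 1.05% held TCACNCCAC, 33.85% CCAAT and 32.74% GGGCGG. Of the 19 windows of the sterol synthesis genes listed further on, with these 2 genes among them, 78.95% held CCAAT and 84.21% GGGCGG. Only 1 of the 19 (5.26%) held TCACNCCAC, and that was the Hmgcs1 window shown here. These matches describe the letters only.

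The arrays differed in how finely they resolved a ratio. Between 13262 and 15157 probes had a measured value on the 3 h arrays and between 16395 and 17766 on the 10 h arrays. At 3 h, 56.1% to 63.4% of measured values lay exactly at a ratio of whole numbers up to 8 (such as 1:1) once a constant of the array was taken off, against 12% to 13.1% at 10 h. Spot intensities were not used here. Arrays of the same time correlated weakly over the fitted probes, with r of 0.054 to 0.237 at 3 h, and at 10 h 0.092 between the Cy5 arrays and -0.056 and -0.097 between these and the Cy3 array. Of the 11 fibroblast markers on the list used, 9 had enough values to be fitted, with 4 of 9 above 0 at each time and medians of -0.01 at 3 h and -0.21 at 10 h. A ratio shows no level, so cell identity was not checked.

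Hmgcs1, an early enzyme of the mevalonate arm, had the highest mean of the 4 genes at 3 h by its probe 17455. Probe 17455 read 0.86, 0.87, 1.27 and 1.71 on 3 h replicates 1 to 4, a mean of 1.18 ± 0.41 (SD, n = 4) or 2.26-fold. At 10 h it read 0.48, 0.74 and 0.75 on replicates 1 to 3, a mean of 0.66 ± 0.15 (SD, n = 3) or 1.58-fold. As deposited, all 7 values were above 0, and the arrays of the 2 times did not overlap. The lowest 3 h value lay above the highest 10 h value, as it did for 2.37% of the 6369 probes with values on all arrays. The genes were picked partly on these arrays, so the gap was not tested. With the constant of each array taken off, the times did overlap, at 0.41 to 1.37 at 3 h and 1.04, 1.14 and 0.12 at 10 h. Whole arrays were shifted by this, as array medians went from within -0.10 to 0.05 as deposited to -0.63 to 0.52.

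The second Hmgcs1 probe did not repeat this. Probe 19404 had a usable value on 1 of 4 arrays at 3 h (-0.10 on replicate 3) and on 2 of 3 at 10 h (-0.28 on replicate 1 and -0.95 on replicate 3). On 3 h replicates 1, 2 and 4 it held the repeated extreme value of the array (17.06, 16.80 and -16.09), which was treated as missing. On 10 h replicate 2 it had no value. None of the 3 usable values of this probe was above 0 as deposited, while probe 17455 was above 0 on the same 3 arrays. The extreme values treated as missing were above 0 on 3 h replicates 1 and 2 and below 0 on replicate 4. With the arrays of the treated sample in Cy3 turned in sign, a reading explained further on, it had 0.10 at 3 h and -0.28 and 0.95 at 10 h. Of its 3 values, those on 3 h replicate 3 and 10 h replicate 3 were exact small ratios once the constant was taken off (1:1 and 1:3). With both probes averaged on each array, the Hmgcs1 mean at 10 h was 0.25 instead of 0.66. Probe 19404 had too few values for the fit, and from here on Hmgcs1 stands for probe 17455 unless the other is named.

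Msmo1, which acts after the ring is closed, lay above 0 on every array. Its values were 1.17, 0.94, 0.46 and 1.58 on 3 h replicates 1 to 4, and the mean was 1.03 ± 0.47 (SD, n = 4), or 2.05-fold. At 10 h they were 0.75, 0.95 and 0.75, and the mean was 0.82 ± 0.12 (SD, n = 3), or 1.76-fold. The 10 h values fell inside the range of the 3 h values, and at 10 h Msmo1 had the highest mean of the 4 genes and the smallest spread.

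Fdft1, at the branch that commits farnesyl diphosphate to sterols, read 0.57, 0.87, -0.10 and 1.44 on 3 h replicates 1 to 4. The mean was 0.69 ± 0.64 (SD, n = 4), or 1.62-fold. At 10 h it read 0.60, 0.88 and 0.64, with a mean of 0.71 ± 0.15 (SD, n = 3), or 1.63-fold. The means at the 2 times were nearly the same, but the 3 h arrays were spread much more widely. In the fit described further on, its 3 h value of 0.69 became 0.37 without 3 h replicate 4 and 1.01 without 3 h replicate 3.

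Sqle, which oxidises squalene and is a control point of the route, read 1.14, 0.46, -0.10 and 0.75 on 3 h replicates 1 to 4. The mean was 0.56 ± 0.52 (SD, n = 4), or 1.48-fold. At 10 h it read 0.69, 0.82 and 0.47, with a mean of 0.66 ± 0.18 (SD, n = 3), or 1.58-fold. Like Fdft1, Sqle was below 0 on 1 array of 7, 3 h replicate 3, where both spots held exactly the constant of that array (-0.10), a ratio of 1:1 without it.

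**Figure D1:**
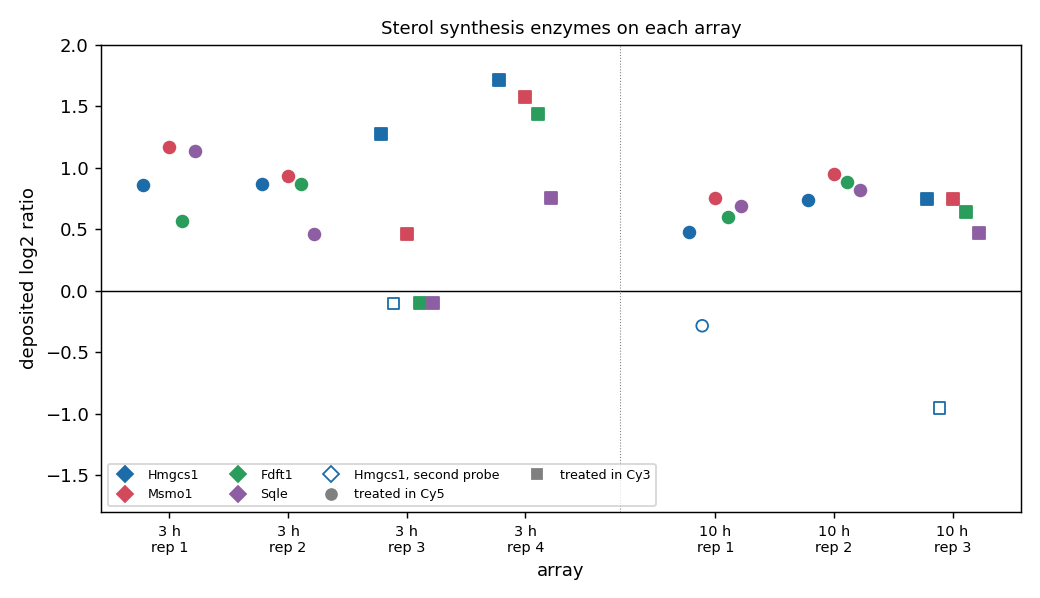
Deposited log2 ratio (vertical axis) of each probe of the 4 genes on each array (horizontal axis); circles are arrays with the treated sample in Cy5 and squares those with it in Cy3. Filled points lie above 0 except Fdft1 and Sqle on 3 h replicate 3, and the open points of the second Hmgcs1 probe lie below 0.

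The order of the means at 3 h was Hmgcs1, Msmo1, Fdft1 and Sqle, and at 10 h Msmo1, Fdft1, Sqle and Hmgcs1. Neighbours in both orders differed by less than their SDs, and across the 10 h arrays the fitted probes of the 4 genes (all but probe 19404) lay between 0.47 and 0.95. Over the 4 genes the mean was 0.63 ± 0.12, 0.85 ± 0.09 and 0.65 ± 0.13 (SD over genes) on 10 h replicates 1 to 3. At 3 h it was 0.93 ± 0.28, 0.78 ± 0.22, 0.38 ± 0.65 and 1.37 ± 0.43 on replicates 1 to 4. The enzymes stood close together at 10 h and far apart on 3 h replicate 3, where Hmgcs1 was at 1.27 and Fdft1 and Sqle at -0.10.

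As deposited, the spread of the fitted probes of the 4 genes over arrays was below that of a typical probe. At 3 h their SDs were 0.41 to 0.64 against a median of 0.69 over 6922 fitted probes with all 4 values. At 10 h they were 0.12 to 0.18 against 0.31 over 9743 probes with all 3. The genes were chosen on the 10 h ratios, so a small spread there may be built in. With the Cy3 arrays turned, their SDs were 0.79 to 1.37 at 3 h and 0.71 to 0.93 at 10 h. On single arrays the fitted probes stood at the 49.8th to 96.2nd percentile of measured values at 3 h and at the 74.7th to 90.8th at 10 h. Hmgcs1 probe 19404 stood at the 33.5th and 9.3rd on 10 h replicates 1 and 3. The probes of the 4 genes in the fit held few exact small ratios, 4 of 16 values (25.0%) at 3 h and 0 of 12 at 10 h. Those 4 were Hmgcs1 and Fdft1 on 3 h replicate 2, both at 8:5, and Fdft1 and Sqle on 3 h replicate 3.

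Msmo1, Fdft1 and Sqle were tested at 3 h, as their choice rested on the 10 h arrays. All probes with at least 3 values at 3 h and 2 at 10 h were fitted together with limma, with a mean for each time and a term for the dye. Of 11559 probes, 0 (0%) passed an adjusted p of 0.05 at 3 h, 0 at 10 h and 0 for the difference of the times. The adjusted p at 3 h was 0.25 for Msmo1 (fitted log2 ratio 1.03 ± 0.27, SE, above 0 on 4 of 4 arrays), 0.376 for Fdft1 (0.69 ± 0.30, 3 of 4) and 0.402 for Sqle (0.56 ± 0.27, 3 of 4). Over 17 other settings it ran from 0.118 to 0.989 for Msmo1, 0.263 to 0.985 for Fdft1 and 0.282 to 0.817 for Sqle, so none passed in any. The main fit shares 1 estimate of spread between the times. The 10 h arrays therefore enter these p-values, and the test is not independent of the choice. With a separate limma fit for each time, the adjusted p at 3 h was 0.474, 0.602 and 0.646 in the same order.

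Single probes often passed without adjustment at 3 h. An unadjusted p under 0.05 was reached by 13.6% of probes at 3 h in limma (3.13% in the higher direction), by 3.88% at 10 h and by 8.11% for the difference. Of the 3 tested genes only Msmo1 was among them at 3 h, at an unadjusted p of 0.00613 in limma. Of 7143 probes with 4 values at 3 h, 4.19% were above 0 on all 4 arrays, as Hmgcs1 probe 17455 and Msmo1 were. Of 13170 probes with 3 values at 10 h, 14.2% were above 0 on all 3, as the fitted probes of all 4 genes were, and 0.345% of 6369 were above 0 on all 7, as Hmgcs1 probe 17455 and Msmo1 were. The genes were picked on the 10 h values, so nothing is read from these shares.

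The labels do not say whether a deposited value is treated over non-treated or Cy5 over Cy3. Under the first reading, used above, 14 of the 16 values of the 4 fitted probes at 3 h and all 12 at 10 h were above 0, and with probe 19404 14 of 17 and 12 of 14. Under the second, the 3 arrays with the treated sample in Cy3 must be turned in sign, and 10 of 16 and 8 of 12 values were above 0, or 11 of 17 and 9 of 14 with probe 19404. The 16 values of the fitted probes with the treated sample in Cy5 are the same in both and all above 0, while probe 19404 had -0.28 there, on 10 h replicate 1. When turned, 2 of the 8 values of the fitted probes with it in Cy3 were above 0 at 3 h and 0 of 4 at 10 h. As deposited, the repeated extreme value was 16.05 to 17.06 on the 4 arrays with the treated sample in Cy5. It was -16.71 to -15.98 on the 3 with it in Cy3. What this means for the direction of the ratio was not tested.

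With the arrays turned, the means at 3 h were -0.31 ± 1.37 for Hmgcs1 probe 17455, 0.02 ± 1.28 for Msmo1, 0.03 ± 1.03 for Fdft1 and 0.24 ± 0.79 for Sqle (SD, n = 4 each). At 10 h they were 0.16 ± 0.79, 0.32 ± 0.93, 0.28 ± 0.81 and 0.35 ± 0.71 in the same order (SD, n = 3 each), and 0.33 ± 0.88 for Hmgcs1 probe 19404 (SD, n = 2). Every one of these means was smaller than its SD, because the orientations then oppose each other. For Msmo1 at 3 h the mean was 1.05 with the treated sample in Cy5 and -1.02 with it in Cy3, and at 10 h the values were 0.85 and -0.75.

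The constant of each array also bears on the size of a ratio. It was 0.45, 0.19, -0.10 and 0.52 on 3 h replicates 1 to 4 and -0.56, -0.40 and 0.63 on 10 h replicates 1 to 3. With it taken off, the fitted probes lay at 1.04 to 1.35 on the 10 h arrays with the treated sample in Cy5, and on replicate 3 at 0.12 for Hmgcs1 and Msmo1, 0.01 for Fdft1 and -0.17 for Sqle. The medians of all measured probes on that scale were 0.52, 0.39 and -0.63 on 10 h replicates 1 to 3. At 3 h they were -0.464, -0.137, 0 and -0.585 on replicates 1 to 4. As deposited, the array medians lay between -0.10 and 0.05. Taking off the constant moves a probe and the median of its array alike, so their order is the same on both scales. The fitted probes stood above the median of each 10 h array. Probe 19404 stood below it on replicates 1 and 3, at 0.27 and -1.59 without the constant. On this scale 14 of 16 values of the fitted probes at 3 h and 11 of 12 at 10 h were above 0, and with probe 19404 14 of 17 and 12 of 14.

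**Figure D2:**
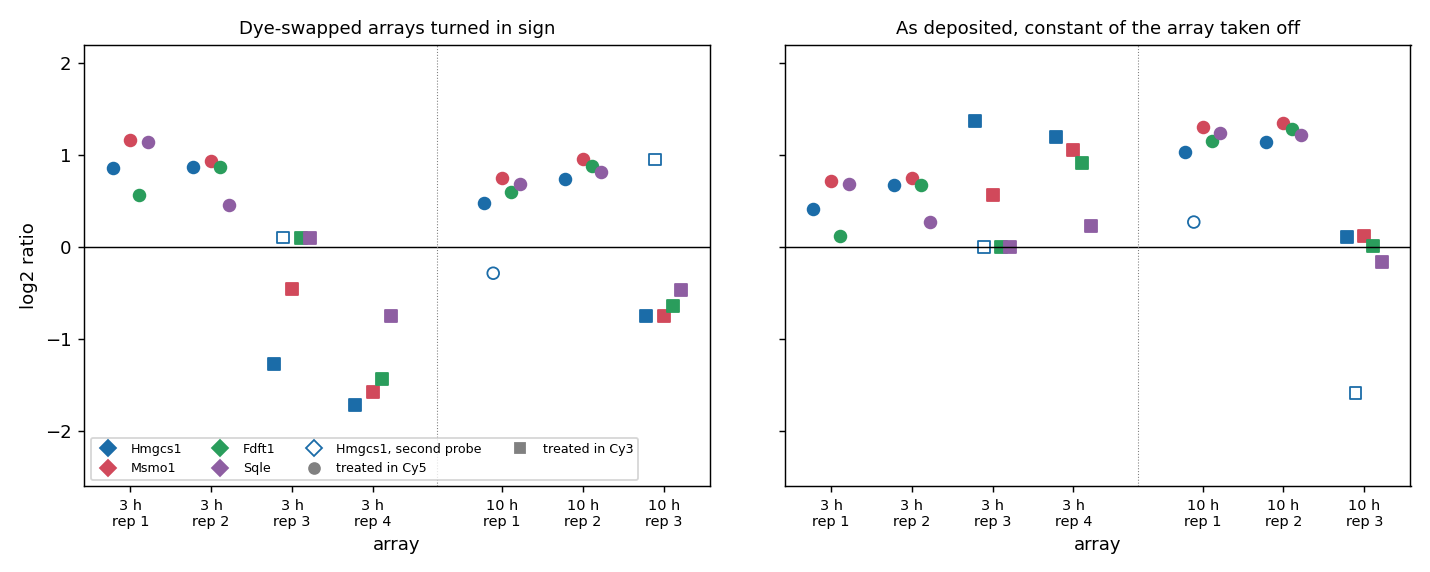
The same probes with the Cy3 arrays turned in sign (left) and with the constant of each array taken off (right), both as log2 ratios per array. On the left the Cy5 circles of the filled probes all lie above 0 and the filled 10 h squares below; on the right the filled 10 h squares lie between -0.17 and 0.12.

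The rest of the route gives the setting. Of 21 listed sterol synthesis genes, 14 had a probe and 9 had enough values to be fitted, namely the 4 genes above and Pmvk, Tm7sf2, Ebp, Sc5d and Dhcr7. The list was drawn up with earlier results of these data known. As 0 of 11559 probes passed at 3 h, at 10 h or for the difference, no gene of the list did. At 10 h all 9 fitted log2 ratios were above 0 (median 0.48), while 46.2% of the 6573 fitted genes were above 0, with a median of -0.03. The 4 described genes were chosen on these 10 h values, so part of that contrast is built in. With the Cy3 arrays turned, 6 of 9 were above 0 at 10 h and the median was 0.04. Without 10 h replicate 2, 9 of 11 fitted genes were above 0 (median 0.32). At 3 h 5 of 9 were above 0 (median 0.03), against 39.3% of all genes (median -0.13), and without single 3 h arrays that median ran from -0.21 (replicate 4) to 0.38 (replicate 2).

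The other 5 enzymes were lower than the 4 at 3 h as deposited. Part of this is built in, since Hmgcs1 was chosen on its 3 h ratio too. The fitted median of the 5 was -0.15 at 3 h, with 1 of 5 above 0, beside -0.13 over all fitted genes. At 10 h it was 0.36, with 5 of 5 above 0. Leaving out 3 h replicate 1 gave a 3 h median of -0.41, and leaving out 3 h replicate 4 gave -0.47. The 10 h median was 0.24 without 10 h replicate 2, with 5 of 7 then fitted above 0. With the Cy3 arrays turned, the fitted median of the 5 was -0.21 at 3 h (1 of 5 above 0) and 0.04 at 10 h (3 of 5). The fitted values of the 4 genes at 3 h then ran from -0.31 to 0.24. Sc5d, the desaturase that acts late in the route, was below 0 on all 4 arrays at 3 h (-0.40 ± 0.50, SD, n = 4) and above 0 on all 3 at 10 h (0.31 ± 0.09, SD, n = 3). Tm7sf2, a sterol reductase, was also below 0 on all 4 arrays at 3 h (-1.11 ± 0.81) and near 0 at 10 h (0.01 ± 0.29). The share of all probes that did the same was not counted. Most genes leaned the same way, with 39.3% of fitted genes above 0 at 3 h and a median difference of 10 h minus 3 h of 0.11.

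The remaining 3 varied widely at 3 h. Phosphomevalonate kinase, Pmvk, went from -0.15 ± 0.73 at 3 h (SD, n = 4) to 0.32 ± 0.33 at 10 h (SD, n = 3). The isomerase Ebp had -0.11 ± 0.92 and 0.33 ± 0.19, and the last reductase of the route, Dhcr7, 0.03 ± 1.44 and 0.29 ± 0.29. At 10 h these 5 were all below the means of the 4 genes, whose own values were the ground for choosing them. On 10 h replicate 1 only 2 of the 5 were above 0, and on replicates 2 and 3 all 5 were.

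**Figure D3:**
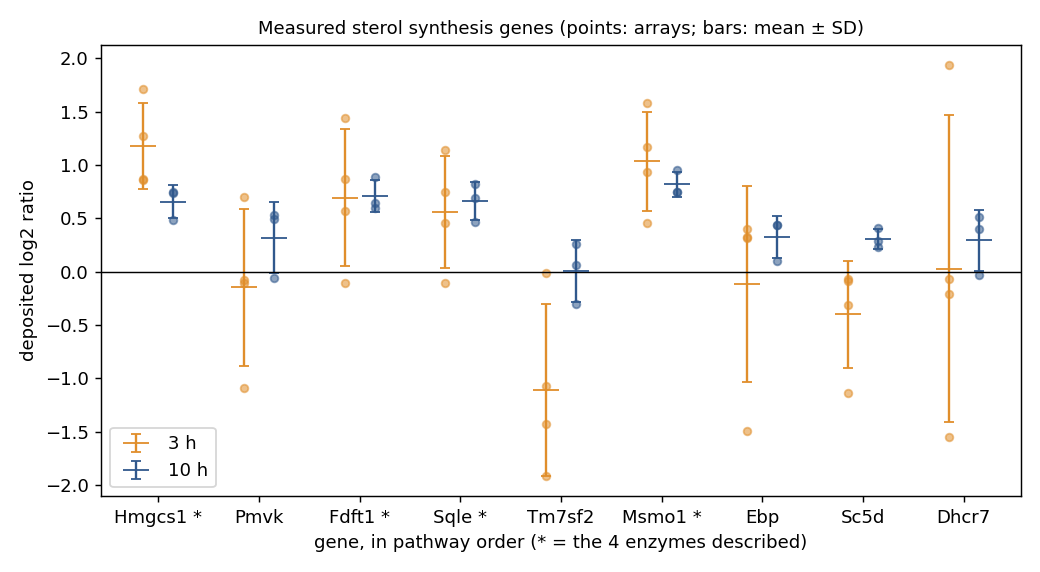
Deposited log2 ratio of the 9 fitted sterol synthesis genes in pathway order; points are arrays and bars give mean ± SD at 3 h (n = 4) and 10 h (n = 3). The 4 starred genes have the highest means at both times, and Tm7sf2 and Sc5d have every 3 h point below 0.

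A further 5 genes of the route had probes with too few values for the fit. Mevalonate kinase, Mvk, was below 0 on all 3 arrays at 10 h (-1.23 ± 0.97, SD) and at 1.67 on the 1 measured 3 h array, replicate 1. Farnesyl diphosphate synthase, Fdps, read -0.14, -0.14 and 2.77 at 10 h and 0.41 and 0.01 on 3 h replicates 3 and 4. Of the demethylase Cyp51, probe 18484 read -0.36, 2.14 and 1.02 at 10 h, and at 3 h it was above 0 on replicate 1 and below 0 on replicate 4. Its probe 9497 read 0.78 on 10 h replicate 1 and 0.45, -0.81 and 0.52 on 3 h replicates 1, 2 and 4. Mvd had 0.60 on 10 h replicate 2 and -1.48 on 3 h replicate 4. The reductase Lbr had -3.32 on 10 h replicate 1 but 2.04, 2.19 and 2.01 on 3 h replicates 1, 2 and 4. These spots did not share a direction at 10 h, and those of Mvk, Mvd and Lbr differed in sign between the times.

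Of the genes that control the route, only Srebf2 and Erlin1 of 10 could be fitted. Srebf2, the SREBP factor most tied to sterol genes, was at 0.03 ± 0.41 at 3 h (SD, n = 4) and -0.02 ± 0.07 at 10 h (SD, n = 3), which is within its spread of 0 at both times. Erlin1 had 0.34 ± 0.76 (n = 3) and -0.13 ± 1.09 (n = 3). Insig2, which holds the SREBP complex in the endoplasmic reticulum, had too few values at 3 h and read -0.29, 0.37 and -0.25 at 10 h. Of 7 fitted genes of sterol uptake, transport and efflux, 3 were above 0 at each time, with medians of -0.25 and -0.04.

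Fatty acid synthesis, which also draws on acetyl-CoA, had 9 fitted genes of 11. At 10 h 7 of 9 fitted values were above 0, with a median of 0.22, but by the plain means over arrays 6 of 9 were, with a median of 0.15. The 2 ways differ in sign for Acaca, Fads2 and Me1. At 3 h 4 of 9 fitted values and 5 of 9 means were above 0. The desaturase Scd1 had 0.42 ± 0.18 and Scd2 0.34 ± 0.11 at 10 h, and ATP citrate lyase, Acly, 0.32 ± 0.14 (SD, n = 3 each), all above 0 on 3 of 3 arrays. Acetyl-CoA carboxylase, Acaca, was below 0 on both arrays that measured it at 10 h (-0.64 ± 0.17, SD, n = 2), where its fitted value was 0.51. Fads2 had a 10 h mean of -0.43 ± 2.05 (SD, n = 2), Elovl5 -0.15 ± 0.14 and Me1 0.02 ± 0.04 (SD, n = 3 each). At 3 h Scd1, Scd2 and Acly were at -0.03 ± 0.56, 0.15 ± 0.41 and -0.09 ± 0.88 (SD, n = 4 each). Of 5 fitted genes of other isoprenoid uses, 1 was above 0 at 3 h and 2 at 10 h. No member of these lists passed in limma at either time or for the difference.

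Markers of other lipid-handling cells were mostly without usable values. Of 6 adipocyte markers 2 were fitted, and Lpl was at 0.48 ± 0.21 at 3 h (SD, n = 4) and -0.02 ± 0.23 at 10 h (SD, n = 3), while Adipoq had -0.07 ± 0.75 and 0.65 ± 0.85. Of 6 liver markers only Apoa2 was fitted, at -0.82 ± 1.96 at 3 h (SD, n = 4) and -0.16 ± 1.68 at 10 h (SD, n = 2). Of 6 macrophage markers only Lyz2 was, at -0.53 ± 0.40 and -0.02 ± 0.26. Their part in the sterol values was not tested.

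Likeness across arrays was measured as the root mean square difference from the mean of the 4 genes over the 7 arrays, among 4268 other genes with all values (median 1.096). The nearest were Akap9, a scaffold for protein kinase A (0.232), asparagine synthetase, Asns (0.346), the cytokine Tnfsf12 (0.35), superoxide dismutase, Sod1 (0.446), and the T cell receptor segment Trav14n-2 (0.457). Akap9 read 1.11, 0.46, 0.78 and 1.20 at 3 h and 0.69, 0.97 and 0.84 at 10 h. Ranked by Pearson correlation over the 7 arrays instead, the top 5 were Api5, Mrfap1, Cdk2ap1, Mdh2 and Glg1 (r of 0.967 to 0.988), and 0 genes were in both sets. These 5 lay at means of -0.12 to 0.07 at 10 h, so the likeness lay in the differences between arrays and not in the height.

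The 4 genes were themselves close by the first measure. Against the mean of the other three, Msmo1 ranked 1st of 4269 genes (0.203), Fdft1 2nd (0.311), Sqle 4th (0.451) and Hmgcs1 8th (0.495). They were chosen for similar ratios, so these ranks are a description.

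**Figure D4:**
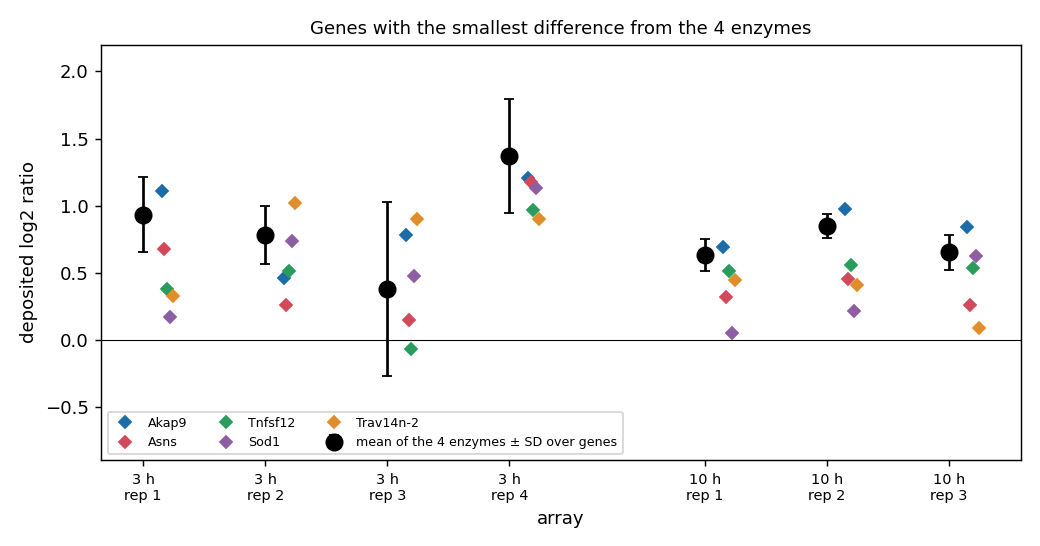
Mean log2 ratio of the 4 enzymes on each array (black, ± SD over genes) beside the 5 genes with the smallest root mean square difference from it. All 5 lie above 0 on every array except Tnfsf12 on 3 h replicate 3 (-0.07), and 3 h replicate 4 holds the highest mean, 1.37.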

How the data were processed

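RNA of treated and non-treated NIH3T3 cells was labelled indirectly with Cy3 and Cy5 and hybridised to 7 2-colour cDNA arrays, per the labels' protocols. The deposited table gives 1 log2 ratio per probe and array. Scanner, background correction, normalization and log base were not given in the sources used here. Base 2 was read from values lying 1 unit apart around a constant of each array, and the direction was assumed to be treated over non-treated. Values over 15 in size, a repeated extreme on each array, were set to missing. Probes were named through the platform annotation (14030 with 1 symbol, 5 with several, 6320 with none), and 0 symbols changed through RefSeq's gene table.

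Probes were fitted with limma 3.58.1 in R 4.3.3 (two-sided, Benjamini-Hochberg over 11559 probes, threshold 0.05), with each contrast as its own coefficient, and the script was tested on simulated data. No centring was added, and 0 array pairs held mostly identical values. The constant of an array is the signed distance of its repeated extreme from 16.61 in size, and an exact small ratio lies, after that, within 0.0016 on the log2 scale of whole numbers up to 8 divided by each other. Genes in lists are means over probes. The number of arrays limits the precision. The members, lists, the rule for named genes (all probes of the 4 genes, any measured list member, and the 5 genes nearest by each measure) and the alternatives were chosen with earlier results of these data known.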

Additional observations from a re-analysis of the deposited data

How the results depend on the processing

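None of Msmo1, Fdft1 and Sqle passed in limma at 3 h under any alternative. For Hmgcs1 at 3 h, and for all 4 genes at 10 h and in the difference, no test is given, since the choice rested on these values. With the repeated extreme values kept, 6 probes of the whole table passed at 3 h, none of them from Msmo1, Fdft1 or Sqle, against 0 otherwise. At 3 h and 10 h the fitted values of the 4 genes were above 0 under every alternative, except Hmgcs1 with the swapped arrays turned (-0.31 and -0.17). At 10 h turning moved Msmo1 from 0.81 to 0.01, Fdft1 from 0.70 to 0.05 and Sqle from 0.59 to 0.15, and scaling the arrays to 1 spread moved the 4 genes to 0.91 to 1.20. The Hmgcs1 difference of 10 h minus 3 h, -0.45, was -0.02 with that scaling and 0.15 when turned. Leaving out each array, Fdft1 at 3 h ran from 0.37 to 1.01. Taking off the array constants, chosen after seeing the data, moved the median of all genes at 3 h from -0.13 to -0.40. The labels' replicate numbers are shared by both times, and same-numbered arrays also had the treated sample in the same dye. The deviations of same-numbered arrays from their time's mean correlated at 0.023, 0.023 and 0.065 over probes. Arrays of the same time were themselves weakly correlated, so this cannot tell whether same-numbered arrays shared a culture or a day. With the replicate block in place of the dye term, 0 probes passed for the difference, and 943 instead of 938 had an unadjusted p under 0.05. With 3 or 4 arrays a time, an exact sign-flip test cannot go below 0.25 or 0.125.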
